A study of Mus musculus with 9 samples.

Results

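The response of gastric tumours to a single injection of interleukin 11 (IL11) was measured against injection of phosphate-buffered saline (PBS). It comprised 6 of the 9 arrays of the series and 17868 of the 45281 probes of the array, those whose signal was detected on at least 3 of these 6 arrays (detection value of 0.95 or more). Of these probes 14352 were detected on all 6 arrays and 3516 on 3 to 5, and together they carried 12380 gene names. The IL11 group held 3 gp130Y575F/F mice given 5 µg of recombinant human IL11 in 200 µl PBS, and the PBS group 3 gp130Y575F/F mice given 200 µl PBS alone. Both were on a mixed 129/BL6 background, were 6 to 8 weeks old and were injected intraperitoneally 60 min before the tumour was taken. The remaining 3 arrays came from gp130Y575F/F mice given 5 µg IL6 in the same way; they entered the estimate of the spread and served as a second cytokine. All groups carried the gp130 mutation, and no wild-type or uninjected mouse was analysed here, so every change is a change within mutant tumours.

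IL11 binds its own receptor, encoded by Il11ra1, and the complex recruits gp130, the signalling subunit encoded by Il6st and shared with interleukin 6 (IL6). Unmutated gp130 passes the signal through Janus kinases to the transcription factor STAT3 and also to the ERK cascade. One of the first STAT3 targets, Socs3, encodes an inhibitor that docks on unmutated gp130 and ends the signal. Which of these steps the mutant gp130 of these mice retains was not measured. Gastric tumours of gp130-mutant mice are a standard model of cytokine-driven epithelial growth in the stomach.

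Each tumour was labelled and hybridised once, and levels are given as background-corrected, quantile-normalized log2 signals. Between 37.4% and 40.6% of all probes were detected per array. The 3 IL11 arrays resembled each other closely (Pearson correlation across probes 0.981 to 0.985), whereas the PBS arrays did not (0.929 to 0.938). PBS replicate 1 correlated with the IL11 arrays at 0.972 to 0.980, PBS replicate 2 at 0.925 to 0.928 and PBS replicate 3 at 0.939 to 0.959, where probes are not independent replicates. The first principal component of the 9 arrays held 41.3% of the variance. Scores on it were 82.6 for PBS replicate 2 and 44.2 for PBS replicate 3, and between -25.1 and -9.90 for the remaining 7 arrays. On PBS replicate 2, 508 probes lay more than 1 log2 unit below all other 8 arrays, on PBS replicate 3 this held for 138 probes, and on any other array for at most 23. Of the 508 probes 265 belonged to genes with a further tested probe, and for 206 of these another probe of the gene lay within or above the range of the other 8 arrays on PBS replicate 2. The angiogenic factor gene Vegfa was such a case. Its brighter probe read 10.70, 10.65 and 10.98 with IL11 against 9.92, 5.03 and 9.36 with PBS, and its dimmer probe 8.67, 8.79 and 8.81 with IL11 against 7.96, 7.95 and 8.03 with PBS. Of the 19 probes called below, 0 were among the 508. A probe that low on 1 PBS array has a wide spread and can hardly pass, so this 0 was nearly fixed beforehand. Without PBS replicate 2, 5 of the 19 were still called. The spread between PBS mice exceeded that between IL11 mice for 77.5% of probes, with a median SD of 0.34 in PBS and 0.19 in IL11 tumours. Cell-type markers also separated the PBS arrays. B and plasma cell markers averaged 11.51 on PBS replicate 2, against 7.88 to 8.00 on the IL11 arrays and 7.53 and 8.83 on PBS replicates 1 and 3. Squamous forestomach markers averaged 9.30 on PBS replicate 3, against 7.82 to 8.57 on the IL11 arrays and 7.79 and 7.76 on PBS replicates 1 and 2. As a check of the labelled tissue, 10 of 11 gastric surface mucous cell markers on the array were detected on some array. Of 14 parietal cell markers 9 were detected and 5, among them the proton pump gene Atp4a, were not. The 6 parietal markers that passed the probe filter averaged 9.72 to 10.01 on the IL11 and PBS arrays.

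IL11 raised few transcripts beyond the spread between mice. The limma test called 19 of 17868 probes (0.106%) at an adjusted p under 0.05, 16 higher with IL11 (0.0895%) and 3 lower (0.0168%). They stood for 18 genes, 15 up and 3 down. At an unadjusted p under 0.05 there were 2454 probes (13.7%), where chance gives 893, split into 1284 higher (7.19%) and 1170 lower (6.55%). The 3 IL11 values lay entirely above the 3 PBS values for 1560 probes (8.73%) and entirely below for 1833 (10.3%). The calls rest on sharing the spread with the IL6 arrays: with the 6 IL11 and PBS arrays alone limma called 0 probes, with a smallest adjusted p of 0.0900 and 1924 probes at an unadjusted p under 0.05. Wherever they were tested, the 19 probes kept their direction in each of the 23 other settings tried, although between 0 and 542 probes were called there. The IL11 and PBS values of the 19 did not overlap. With arrays left out or weighted, or only the filter, block or moderation changed, their direction was therefore fixed beforehand and lends no support. The rule for naming called genes also asked for groups that do not overlap, so separate groups in the called genes below lend none either.

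Over all probes the median log2 change was -0.0075, with quartiles of -0.24 and 0.26 and outer percentiles (the 5th and the 95th) of -0.62 and 0.78. Changes of over 1 log2 unit were more often increases: 518 probes (2.90%) lay above +1 and 222 (1.24%) below -1. The groups did not overlap for 200 of the 518 and 121 of the 222. Of the 518, 262 were among the probes that lay low on PBS replicate 2, and without that array 236 probes lay above +1 and 177 below -1. With the probes split by mean level into 3 classes of 5956, the brightest class held 231 probes above +1 and 17 below -1, the middle class 223 and 83, and the dimmest class 64 and 122. Of the called increases 8 fell in the brightest class, 8 in the middle one and 0 in the dimmest. Changes were measured with a median SE of 0.26 in the dimmest class and 0.20 in the brightest.

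**Figure D1:**
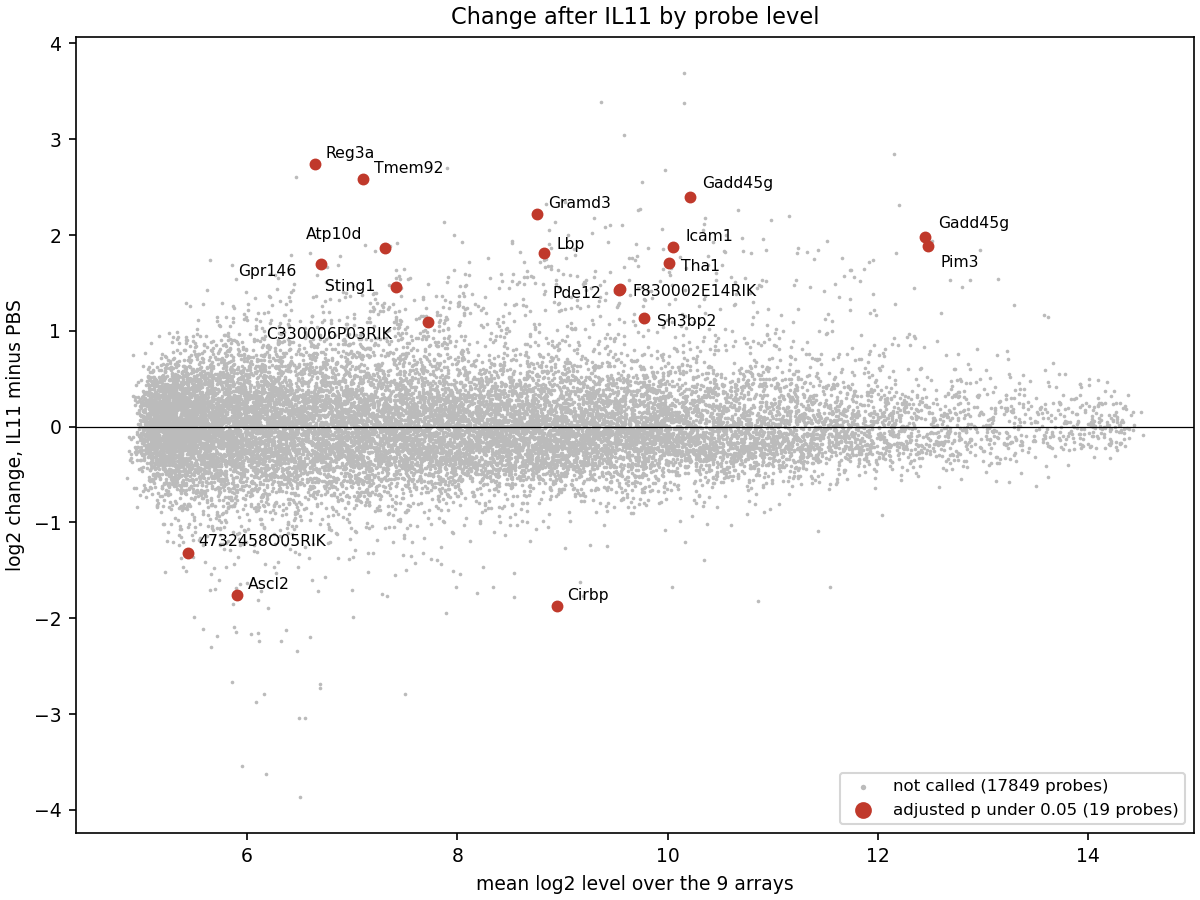
Log2 change between IL11 and PBS (vertical axis) against the mean log2 level over the 9 arrays (horizontal axis) for 17868 probes, with the 19 called probes in red and named. The called increases lie at 1.09 to 2.74, and Cirbp, Ascl2 and 4732458O05RIK are the 3 called decreases.

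Gadd45g, Pim3 and Icam1 were among the called increases with a known place in cytokine signalling. Gadd45g, a stress and growth-arrest gene induced early by many cytokines, was called by both of its probes. One read 10.55, 10.81 and 11.20 in IL11 tumours against 8.75, 8.34 and 8.27 in PBS tumours, a rise of 2.40 ± 0.23 (SE, n = 3 per group) on the log2 scale or 5.28-fold (95% interval 3.72 to 7.49), with the smallest adjusted p of all probes, 0.0217. The other read 12.78, 13.07 and 12.93 with IL11 against 11.41, 10.31 and 11.10 with PBS, a rise of 1.98 ± 0.27. Neither pair of groups overlapped. Pim3, a serine/threonine kinase gene of the Pim family that promotes cell survival, read 12.83, 13.16 and 13.01 with IL11 against 11.63, 10.93 and 10.79 with PBS and rose by 1.89 ± 0.23 (adjusted p = 0.0341). Icam1, the endothelial and epithelial ligand of leukocyte integrins, read 10.55, 10.64 and 10.45 with IL11 against 8.99, 8.26 and 8.77 with PBS and rose 3.66-fold (2.61 to 5.11). The gaps between groups in these genes were wider than any gap within a group. With PBS replicate 1 as the only PBS array, log2 changes were 2.10 for the first Gadd45g probe, 1.37 for Pim3 and 1.55 for Icam1.

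STAT dimers bind TTCNNNGAA, a palindrome that reads the same on both strands. It was searched from 250 bases before to 50 bases after the start of transcription in the RefSeq promoter table of build GRCm38.p6. It occurred in 8.30% of 32851 promoters and in 8.33% of the 8417 tested genes that had a promoter in that table. Among the 15 genes that rose, 8 had a promoter there and 2 held the motif, and among the 3 that fell, 2 had a promoter and 0 held it. Of the pathway genes Socs3, Bcl3, Osmr and Stat3, which were not called, Socs3 held the motif and the others did not. The promoters with a match among the genes that rose, and that of the STAT3 target Socs3, are printed to show where it lies. The match is in capitals, starting at position -42 from the start of transcription in Icam1 (chr9:21015690-21015989, plus strand), at -154 in Socs3 (chr11:117969317-117969616, minus strand) and at -119 in 1 of the 3 listed starts of Gpr146 (chr5:139380389-139380688, plus strand).
Icam1: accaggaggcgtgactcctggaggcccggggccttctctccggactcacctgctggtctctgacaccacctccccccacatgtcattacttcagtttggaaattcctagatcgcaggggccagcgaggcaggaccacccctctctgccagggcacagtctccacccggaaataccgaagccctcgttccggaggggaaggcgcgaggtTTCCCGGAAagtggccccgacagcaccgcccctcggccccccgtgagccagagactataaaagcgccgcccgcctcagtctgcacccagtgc
Socs3: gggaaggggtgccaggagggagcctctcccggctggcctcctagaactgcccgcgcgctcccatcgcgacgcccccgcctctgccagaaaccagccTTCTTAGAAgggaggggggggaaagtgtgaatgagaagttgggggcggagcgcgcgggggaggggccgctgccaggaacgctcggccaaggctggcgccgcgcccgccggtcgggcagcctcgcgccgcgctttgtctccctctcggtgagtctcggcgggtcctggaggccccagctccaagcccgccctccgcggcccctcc
Gpr146: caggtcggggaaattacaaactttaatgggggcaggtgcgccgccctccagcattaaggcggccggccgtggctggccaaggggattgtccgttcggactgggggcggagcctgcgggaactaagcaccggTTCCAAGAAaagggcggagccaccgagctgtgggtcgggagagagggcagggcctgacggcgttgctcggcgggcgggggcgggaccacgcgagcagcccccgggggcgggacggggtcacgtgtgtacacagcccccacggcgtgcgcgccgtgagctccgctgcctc
A match describes letters only, and binding was not measured.

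Reg3a, Lbp and Sting1, which rose, were on the secreted antimicrobial or innate sensing lists. Reg3a, which encodes a secreted C-type lectin with antimicrobial activity, had the largest called change. It read 7.30, 7.64 and 8.20 with IL11 and was detected on all of these arrays, against 5.43, 4.60 and 4.87 with PBS, where 1 array detected it. The rise was 2.74 ± 0.39 on the log2 scale, or 6.70-fold (3.63 to 12.3), and is set against a level close to background. Lbp, whose product carries lipopolysaccharide to its receptor, read 9.48, 9.43 and 9.96 with IL11 against 7.87, 7.87 and 7.68 with PBS and rose 3.52-fold (2.35 to 5.26). Sting1, the adaptor of cytosolic DNA sensing, read 7.58, 7.89 and 8.29 with IL11 against 6.24, 6.64 and 6.51 with PBS and rose by 1.46 ± 0.21 (adjusted p = 0.0498). Lbp varied least among PBS mice (SD 0.11), and by the naming rule the 3 genes had separate groups. Of 15 pancreas and liver markers on the array 7 were detected on some array and 4 passed the probe filter. The summed signal of these 4 was 8263 to 9652 on the IL11 arrays and 5724 to 8092 on the PBS arrays; the liver genes Alb and Fabp1 and the pancreas genes Prss2 and Cpa1 were undetected, and the part of these tissues in the rises of Reg3a and Lbp was not tested.

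The remaining called increases were those of 9 genes. Tmem92, which encodes a transmembrane protein, read 7.46, 7.84 and 8.30 with IL11 against 5.96, 4.57 and 5.31 with PBS and rose 5.98-fold (3.42 to 10.4). Gramd3 read 9.36, 9.56 and 9.67 with IL11 against 7.68, 6.82 and 7.42 with PBS and rose by 2.22 ± 0.24. Atp10d, a phospholipid flippase gene, read 7.72, 7.88 and 7.87 with IL11 against 6.35, 6.00 and 5.52 with PBS and rose by 1.87 ± 0.26. In all 3 genes the IL11 mice lay within 1 log2 unit of each other and clear of every PBS mouse. Tha1, which encodes threonine aldolase, read 10.44, 10.60 and 10.64 with IL11 against 8.91, 8.53 and 9.12 with PBS and rose by 1.71 ± 0.19. Gpr146, a receptor gene linked to cholesterol metabolism, read 6.95, 7.55 and 6.84 with IL11 against 5.21, 5.55 and 5.47 with PBS by its called probe and rose by 1.70 ± 0.21, while a second gave 1.78 ± 0.31 without passing (adjusted p = 0.0833) and the third, near background, gave 0.23. Pde12, a mitochondrial enzyme gene that removes poly(A) tails, read 10.01, 9.73 and 9.88 with IL11 against 8.58, 8.43 and 8.34 with PBS and rose by 1.42 ± 0.17. Its second probe, detected on all IL11 and no PBS arrays, was at least 1.53-fold higher with an adjusted p of 0.0715. Sh3bp2, an adaptor gene of immune receptor signalling, rose by 1.13 ± 0.16, and the unnamed transcripts F830002E14RIK and C330006P03RIK rose by 1.43 ± 0.20 and 1.09 ± 0.16.

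Called decreases were few. Cirbp, which encodes a cold-inducible RNA-binding protein, read 7.79, 8.14 and 7.91 in IL11 tumours against 9.63, 9.69 and 10.15 in PBS tumours. It fell by 1.88 on the log2 scale (SE 0.26, adjusted p = 0.0459), and PBS levels were 3.67-fold those with IL11. Ascl2, which encodes a transcription factor that Wnt signalling maintains in intestinal stem cells, read 5.52, 5.29 and 5.07 with IL11, detected on 2 of 3 arrays, against 7.15, 7.08 and 6.91 with PBS, and fell by 1.75 (adjusted p = 0.0459). Its second probe gave -1.10 (adjusted p = 0.0703). The transcript 4732458O05RIK was detected on all PBS and no IL11 arrays and was at least 2.03-fold lower with IL11. The 3 PBS values lay above all IL11 values in each of these transcripts, and with PBS replicate 1 as the only PBS array the changes of Cirbp and Ascl2 were -1.68 and -1.85.

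The decreases next in rank did not pass. Cxcl9, a T-cell attracting chemokine gene, read 5.17, 4.82 and 5.81 with IL11 against 7.40, 8.28 and 6.83 with PBS (-2.24 ± 0.36, adjusted p = 0.0639). Gja4, which encodes connexin 37 of arterial endothelium, read 6.57, 6.83 and 6.92 with IL11 against 7.72, 7.72 and 8.04 with PBS (-1.06 ± 0.18, adjusted p = 0.0754). Sfxn3, Arhgap30, Pdlim2, 1700019D03Rik and Echdc3 gave -1.21, -1.07, -1.22, -1.43 and -0.91, with adjusted p of 0.0586 to 0.0815. Pdlim2 had further probes at -0.05 and -0.59 and one, detected on no IL11 array, that was at least 1.60-fold lower. By the rule that chose them the IL11 and PBS values of these genes did not overlap.

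**Figure D2:**
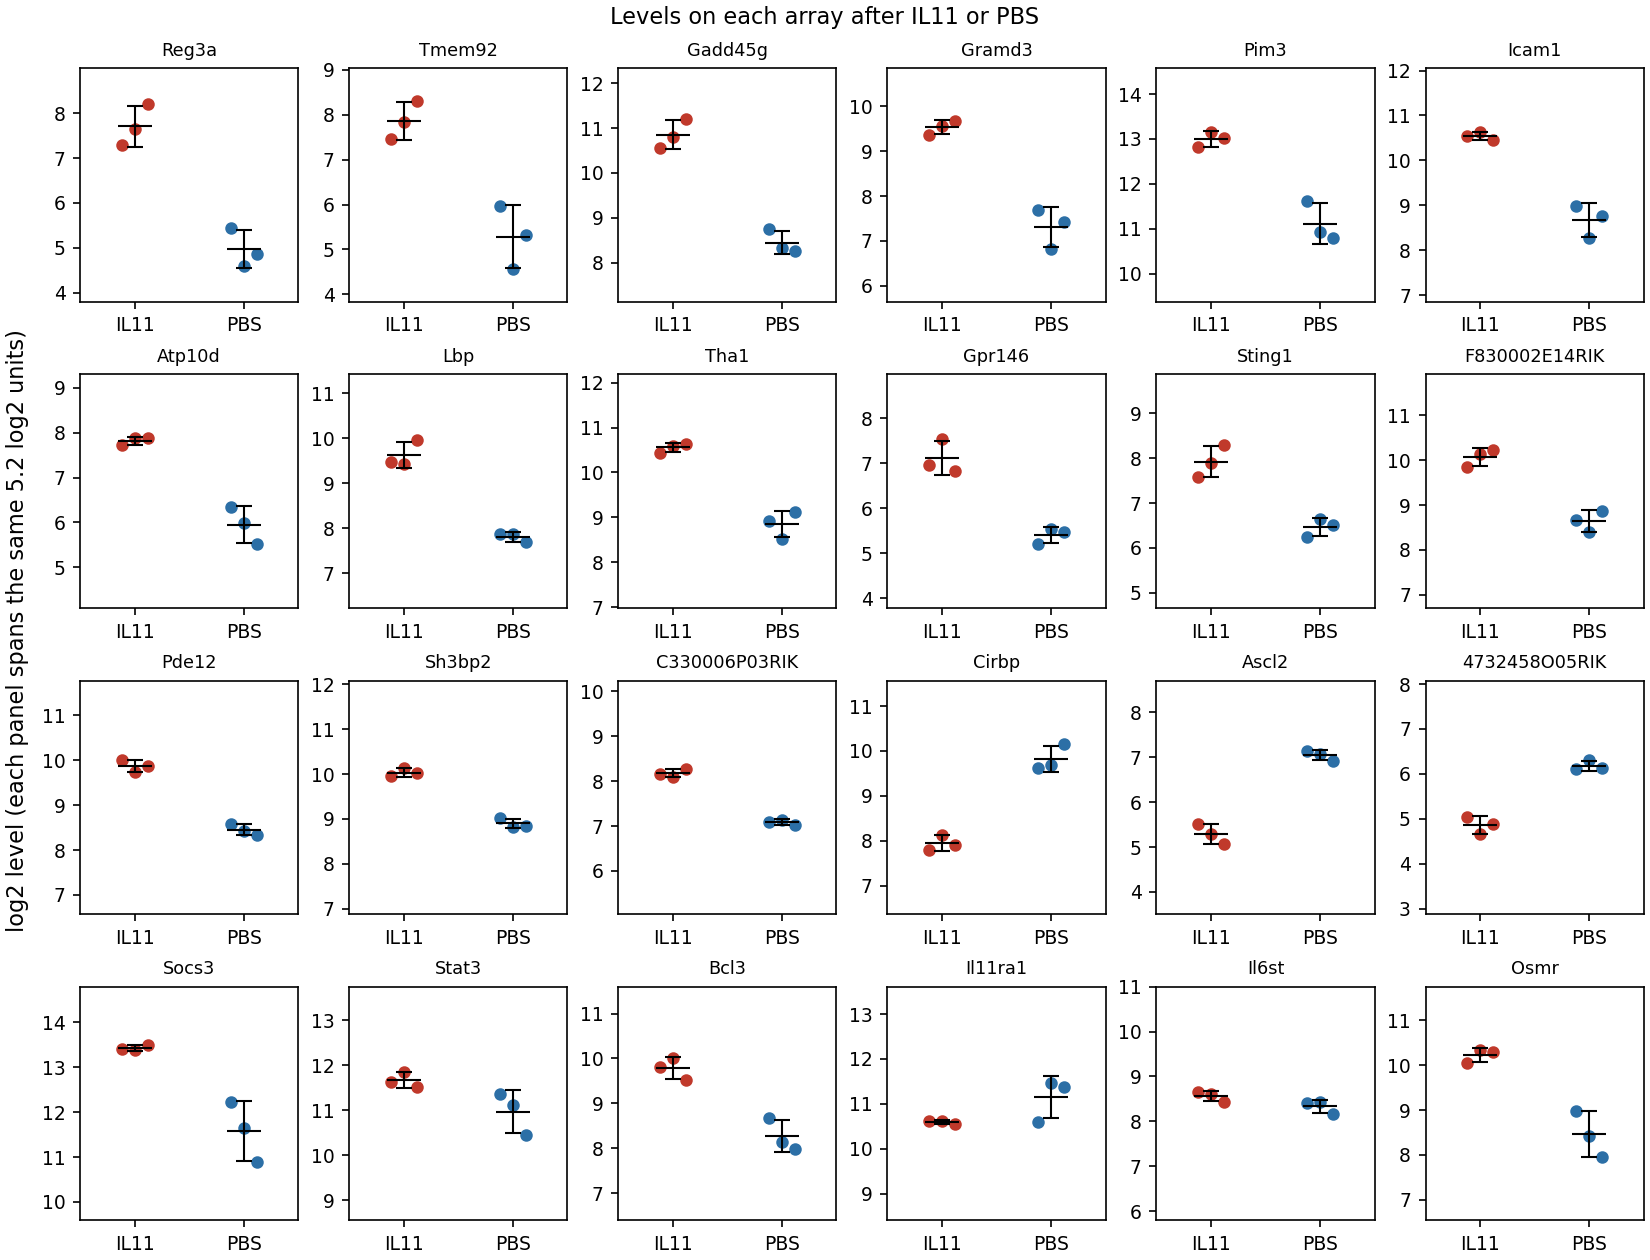
Log2 level on each array (points) with the group mean (long bar) and SD (whiskers, n = 3) after IL11 (red, left) and PBS (blue, right) for the 18 called genes and 6 genes of the gp130 pathway. Every panel spans the same height. IL11 and PBS points do not overlap in the called genes, Socs3, Bcl3 and Osmr, and meet in Il11ra1; Gadd45g is shown by its probe with a change of 2.40 and Gpr146 by its called probe.

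Members of the gp130 pathway were examined by name whatever their rank. The feedback inhibitor gene Socs3 read 13.41, 13.37 and 13.50 with IL11 against 12.22, 11.64 and 10.88 with PBS. The groups did not overlap, yet the change of 1.85 ± 0.29 did not pass (adjusted p = 0.0586), and it was 1.21 against PBS replicate 1 alone. Bcl3, which encodes a nuclear IκB-family co-regulator, read 9.81, 10.02 and 9.53 with IL11 against 8.67, 8.15 and 7.98 with PBS (1.52 ± 0.24, adjusted p = 0.0586). Osmr, the gene of the oncostatin M receptor that pairs with gp130, read 10.05, 10.33 and 10.28 with IL11 against 8.99, 8.42 and 7.96 with PBS (1.77 ± 0.28, adjusted p = 0.0590). In these 3 genes PBS replicate 1 was the highest of the PBS arrays. Stat3 itself read 11.63, 11.86 and 11.51 with IL11 against 11.36, 11.11 and 10.44 with PBS (0.70 ± 0.24, adjusted p = 0.286), and its other probes gave 0.42 and 0.30. Jak2, a kinase gene of the receptor complex, read 9.55, 9.53 and 9.72 with IL11 against 9.05, 8.93 and 8.93 with PBS (0.63 ± 0.17, adjusted p = 0.228). Ctf1, the gene of the gp130 ligand cardiotrophin 1, read 7.25, 7.43 and 7.11 with IL11 against 7.83, 7.75 and 8.35 with PBS (-0.71 ± 0.21, adjusted p = 0.243). Jak2 and Ctf1 values did not overlap between groups, and the differences did not pass. Of the 23 measured gp130 receptor, ligand and JAK-STAT genes, 6 lay entirely above PBS and 1 entirely below, against 8.73% and 10.3% of all probes.

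The receptor and ligand genes showed no call. Il6st read 8.64, 8.61 and 8.43 with IL11 against 8.41, 8.43 and 8.16 with PBS (0.23 ± 0.16), with 1 IL11 value at the level of the PBS values. Il11ra1 read 10.61, 10.62 and 10.55 with IL11 against 10.60, 11.47 and 11.38 with PBS (-0.56 ± 0.23, adjusted p = 0.340), and its second probe gave 0.01. PBS replicate 1 lay within the IL11 values of Il11ra1. Il6ra gave -0.23 ± 0.24. The transcript of Il11 varied over several log2 units, at 7.62, 8.54 and 10.06 with IL11 and 9.77, 7.10 and 5.27 with PBS, so that its change of 1.36 ± 1.19 turned to -1.04 against PBS replicate 1 alone. The single probe of Il6 was detected on 0 of the 6 arrays. Junb, Fos, Cebpd and Pim1, early genes of the pathway, gave 0.66, 1.11, 1.48 and 0.28 without passing. Fos averaged 11.89 ± 0.06 with IL11 against 10.78 ± 0.97 with PBS (SD, n = 3 each), with 11.86 on PBS replicate 1. Cebpd read 8.69, 8.36 and 8.72 with IL11 against 8.39, 4.67 and 8.27 with PBS. In both genes PBS replicate 1 lay within the range of the IL11 values. Without PBS replicate 2 the Cebpd change was 0.26.

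The STAT3 list and the heat shock list had the highest medians of the response lists, and their order turned without PBS replicate 2 or 3. The STAT3 list had 30 measured genes, of which 3 rose (Icam1, Pim3 and Reg3a), 0 fell and 27 did not pass, where 0.0895% of all probes were called higher. Without PBS replicate 2 the list held 1 call, and with the 6 IL11 and PBS arrays alone 0. Of the 30, 25 lay above 0 and the median change was 0.75, against -0.024 for all genes tested. The median was 0.58 without PBS replicate 2, 0.62 without PBS replicate 3 and 0.45 against PBS replicate 1 alone. Immediate early genes, which need no new protein for their induction, had 31 measured members, with 1 called (Gadd45g), 23 above 0 and a median of 0.23, which was 0.086 against PBS replicate 1 alone. Zfp36, which encodes the mRNA-destabilising protein tristetraprolin, read 11.34, 11.38 and 11.36 with IL11 against 10.61, 10.18 and 10.01 with PBS (1.09 ± 0.18, adjusted p = 0.0715). Jun lay below PBS, with 9.36, 8.91 and 9.08 under IL11 against 9.42, 10.28 and 10.04 with PBS (-0.80 ± 0.26, adjusted p = 0.279). The 17 ERK feedback and EGF-family genes had 0 calls and a median of 0.29, which was -0.07 against PBS replicate 1 alone. The ERK phosphatase gene Dusp6 read 11.85, 11.98 and 11.89 with IL11 against 11.76, 10.90 and 10.94 with PBS, with PBS replicate 1 again nearest the IL11 values.

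Chaperone genes lay above 0 without exception. All 22 measured targets of heat shock factor 1 and chaperones had positive changes, with 0 called and a median of 0.66. Hsph1, the gene of the chaperone Hsp110, read 11.43, 12.19 and 11.27 with IL11 against 10.02, 9.20 and 9.20 with PBS (2.15 ± 0.33, adjusted p = 0.0586). Dnajb1, an Hsp40 co-chaperone gene, read 12.24, 12.19 and 12.43 with IL11 against 11.50, 11.30 and 11.21 with PBS (0.95 ± 0.16, adjusted p = 0.0715). Ahsa1, which stimulates the Hsp90 ATPase, read 10.11, 10.42 and 10.25 with IL11 against 9.68, 9.52 and 9.60 with PBS (0.67 ± 0.18, adjusted p = 0.231). Each of these 3, which were picked by small p, had separate groups. All IL11 values lay above all PBS values for 9 of the 22, against 8.73% of all probes. The list's median was 0.61 without PBS replicate 2, 0.69 without PBS replicate 3 and 0.38 against PBS replicate 1 alone. The 20 measured ribosome biogenesis genes also all lay above 0, with 0 called and a median of 0.38, which was 0.23 without PBS replicate 3 and 0.16 against PBS replicate 1 alone. Nop56, a box C/D ribonucleoprotein gene, read 8.82, 8.92 and 8.73 with IL11 against 8.21, 8.08 and 7.77 with PBS (0.81 ± 0.17, adjusted p = 0.161). Of 25 unfolded protein response genes 22 lay above 0, with 0 called and a median of 0.37, which was 0.35 against PBS replicate 1 alone. Creld2, an endoplasmic reticulum stress gene, read 10.65, 10.42 and 10.89 with IL11 against 9.85, 10.01 and 9.30 with PBS by its dimmer probe (0.93 ± 0.27, adjusted p = 0.246). Hspa5, the gene of the endoplasmic reticulum chaperone BiP, read 7.38, 7.46 and 6.95 with IL11 against 6.71, 4.98 and 5.56 with PBS (1.51 ± 0.38, adjusted p = 0.209).

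Of 22 innate sensing genes, 2 rose (Lbp and Sting1), 18 lay above 0 and the median was 0.28. Against the 0.0895% of all probes called higher, these 2 calls were 0 without PBS replicate 2, with array weights per group and with the 6 IL11 and PBS arrays alone. Tlr4, the lipopolysaccharide receptor gene, read 9.28, 9.19 and 9.50 with IL11 against 8.78, 8.53 and 8.54 with PBS (0.71 ± 0.16, adjusted p = 0.195), with 0.57 from its second probe. Secreted antimicrobial and acute phase genes were mixed, with 2 of 23 risen (Reg3a and Lbp), 13 above 0 and a median of 0.054. Reg3g, an antimicrobial lectin gene related to Reg3a, read 13.01, 13.18 and 13.50 with IL11 against 12.41, 7.88 and 10.86 with PBS, a change of 2.85 ± 0.88 that did not pass (adjusted p = 0.265) and in which 1 PBS array lay near the IL11 values. It was 1.60 without PBS replicate 2 and 0.82 against PBS replicate 1 alone. The fibrinogen gene Fgg was detected on all IL11 and no PBS arrays and was at least 1.20-fold higher, without passing (adjusted p = 0.243). NF-kB targets had 1 rise (Icam1) among 25 genes and a median of -0.041. In that list Tnf, the tumour necrosis factor gene, read 4.74, 4.67 and 5.23 with IL11, detected on 1 of 3 arrays, against 6.38, 5.46 and 5.86 with PBS (-1.01 ± 0.29, adjusted p = 0.241). Interferon response genes had 0 calls among 23 and a median of -0.018.

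**Figure D3:**
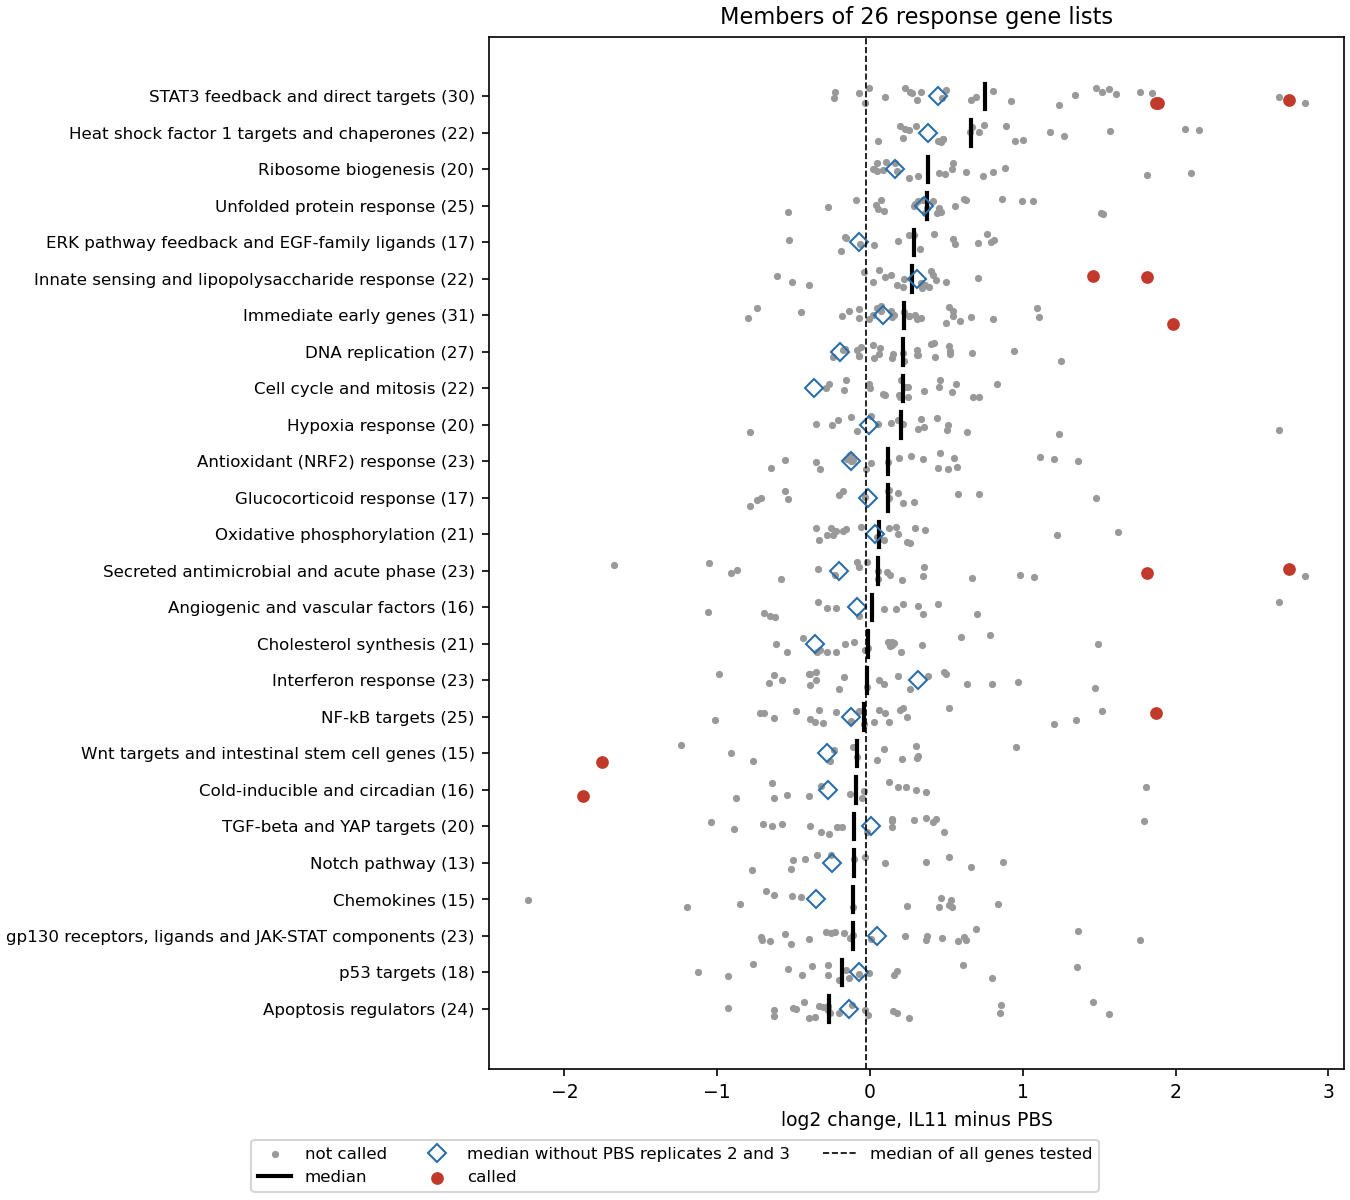
Log2 change between IL11 and PBS (horizontal axis) for each measured gene of 26 response lists (number of measured genes in brackets), ordered by median. Red points are called, grey points are not, black bars are medians, open diamonds are the medians with PBS replicate 1 as the only PBS array, and the dashed line is the median of all genes tested (-0.024). The STAT3 and heat shock lists have the highest medians, 0.75 and 0.66, and every heat shock and ribosome biogenesis gene lies above 0.

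Proliferation lists had no call and no settled direction. The 22 cell cycle and mitosis genes had a median of 0.21, which was 0.63 without PBS replicate 1 and -0.37 against PBS replicate 1 alone, and the 27 DNA replication genes one of 0.22, which was 0.45 and -0.20 in the same settings. Wnt targets and intestinal stem cell genes had 1 call of 15 (Ascl2, down) and a median of -0.09, where 0.0168% of all probes were called lower. The ephrin receptor gene Ephb3 read 5.35, 5.32 and 5.53 with IL11 against 6.23, 6.23 and 6.06 with PBS (-0.77 ± 0.18, adjusted p = 0.185). Axin2, the feedback gene of Wnt signalling, read 5.46, 4.99 and 4.63 with IL11, detected on 1 of 3 arrays, against 6.33, 6.74 and 5.71 with PBS (-1.23 ± 0.39, adjusted p = 0.270). In both genes all IL11 values lay below all PBS values, as they did for 4 of the 15 list genes and 10.3% of all probes. Cold-inducible and circadian genes had 1 call of 16 (Cirbp, down) and a median of -0.09. Among them the clock output gene Tef gave -0.87 ± 0.26 (adjusted p = 0.247), with separate groups. All IL11 values lay below all PBS values for 3 of these 16 genes. Neither the Wnt list nor the cold-inducible list held a call without PBS replicate 2, with array weights per group or with the 6 IL11 and PBS arrays alone. The p53 targets had 0 calls among 18 and a median of -0.18, and apoptosis regulators 0 among 24 and a median of -0.27. Both medians were positive under median scaling, at 0.15 and 0.089, but that setting moved the median of all probes to 0.28, above both. The pro-apoptotic gene Bbc3, on both lists, read 6.34, 6.20 and 6.33 with IL11 against 7.05, 6.72 and 7.88 with PBS (-0.93 ± 0.29, adjusted p = 0.267). Hypoxia response genes had 0 calls among 20 and a median of 0.20. Ddit4, an mTORC1 inhibitor gene on the hypoxia and glucocorticoid lists, read 9.69, 9.73 and 10.15 with IL11 against 10.65, 10.64 and 10.62 with PBS (-0.78 ± 0.21, adjusted p = 0.229), and its PBS values hardly varied.

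Macrophage and monocyte markers mostly lay below PBS in IL11 tumours. Of 15 measured markers 13 lay below 0, 0 were called and the median was -1.04, against -0.024 for all genes tested. Their mean log2 level was 7.33, 6.59 and 7.15 with IL11 against 7.64, 7.99 and 7.93 with PBS. These means did not overlap, and neither did the means of the STAT3, immediate early, innate sensing, heat shock, unfolded protein and ribosome biogenesis lists, which were higher with IL11. The summed signal of the macrophage markers did overlap, at 3096 to 5373 with IL11 and 5056 to 8907 with PBS. C1qc, a complement gene of tissue macrophages, read 7.10, 5.81 and 7.16 with IL11 against 7.88, 9.05 and 8.46 with PBS (-1.77 ± 0.45, adjusted p = 0.212). Aif1 read 6.28, 5.87 and 6.18 with IL11 against 6.75, 8.23 and 7.12 with PBS, and Cd68, the lysosomal macrophage marker, 6.58, 5.70 and 6.78 with IL11 against 7.06, 7.57 and 7.55 with PBS. For 7 of the 15 markers all IL11 values lay below all PBS values, as did 10.3% of all probes, whereas Adgre1, a surface receptor gene of macrophages, gave -0.08 and Cd14 0.41. The list's median was -0.63 against PBS replicate 1 alone and stayed below 0 in all settings. Fewer cells of a type and less RNA per cell cannot be told apart in such bulk samples. Chemokine genes were mixed. Of 15 measured, 7 lay above 0 and 8 below, 0 were called and the median was -0.11. Besides Cxcl9, Ccl5 was at 4.60, 4.90 and 4.84 with IL11, detected on 0 of 3 arrays, against 5.90, 6.49 and 5.54 with PBS, which is at least 1.76-fold lower without passing (adjusted p = 0.161). Ccl25, a chemokine gene of the gut epithelium, read 6.76, 6.54 and 6.23 with IL11 against 5.81, 5.76 and 5.45 with PBS (0.84 ± 0.21, adjusted p = 0.209), so that members on both sides of 0 had separate groups. IL11 values lay above all PBS values for 1 of the 15 chemokine genes and below for 4, against 8.73% and 10.3% of all probes. The part of macrophage content in the changes of other genes was not tested.

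Vessel and stroma markers differed less. Endothelial markers had 0 calls of 18, a median of -0.12, and mean levels of 7.98, 7.98 and 8.23 with IL11 against 8.12, 8.27 and 8.47 with PBS. Egfl7, an endothelial secreted factor gene, read 9.61, 9.43 and 9.58 with IL11 against 10.12, 10.34 and 10.14 with PBS (-0.66 ± 0.18, adjusted p = 0.223). Fibroblast and stroma markers had 0 calls of 16, a median of -0.27, and overlapping means of 8.94, 8.09 and 8.65 with IL11 against 8.67, 8.98 and 8.84 with PBS. Under median scaling both medians were positive, at 0.11 and 0.058, but that setting moved the median of all probes to 0.28, above both. IL11 replicate 2 had the lowest mean of all 6 arrays for macrophage, fibroblast and smooth muscle markers. Markers of the gastric surface averaged 11.94, 11.93 and 11.41 with IL11 and 11.54, 11.84 and 10.86 with PBS, so that the mucous epithelium overlapped between groups.

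**Figure D4:**
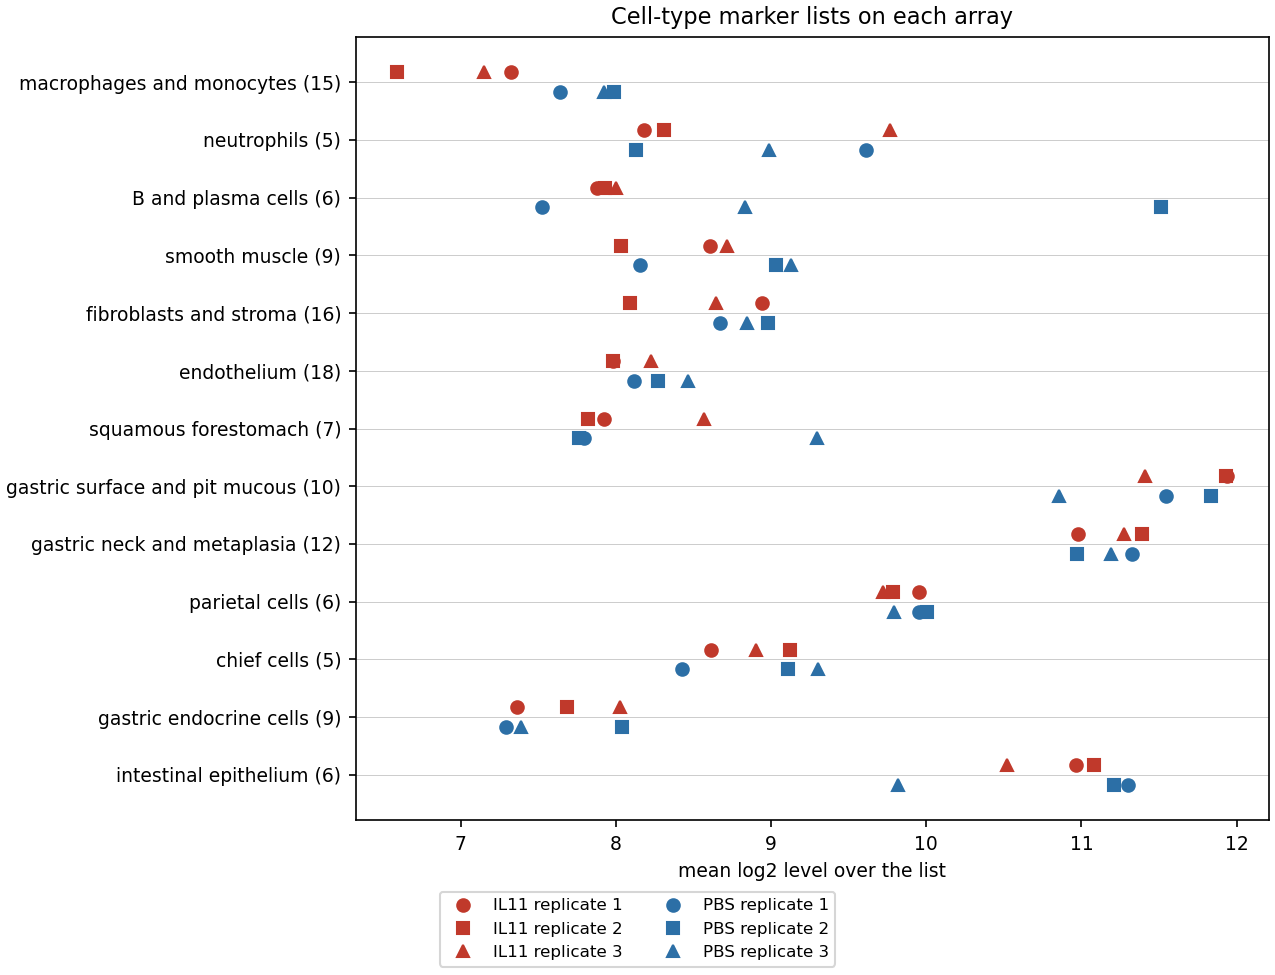
Mean log2 level (horizontal axis) of 13 cell-type marker lists on each IL11 array (red, upper row) and PBS array (blue, lower row), with the number of measured markers in brackets. IL11 means lie below all PBS means for macrophages and monocytes, PBS replicate 2 is far above the other arrays for B and plasma cells (11.51), and PBS replicate 3 for squamous forestomach (9.30).

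Presence and absence were also listed for the dimmest transcripts. Of the 17868 probes, 81 were detected on all IL11 and no PBS arrays, and 66 on all PBS and no IL11 arrays. The filter asked for detection on at least 3 of the 6 arrays, so each of these probes passed only through the group that detected it. Other splits of the arrays were not counted, so the counts are no independent view and no conclusion is drawn from them. The probes described above as detected in only the IL11 or only the PBS group are among them. Of the 81, 32 were also detected on all IL6 arrays, and of the 66, 22 on no IL6 array. Among the 81, and named after their values were seen, were Hamp, the gene of the iron hormone hepcidin and a STAT3 target in liver, at least 1.97-fold higher with IL11, and Trim15, an E3 ligase family gene, at least 2.22-fold higher. Gcnt2, an enzyme gene of glycan synthesis, was at least 1.76-fold higher. The adjusted p were 0.332, 0.0830 and 0.133, so none passed. Among the 66 were the immunoglobulin gene Ighm, which is a marker of B cells, and the leukocyte actin regulator Coro1a, at least 2.89-fold lower with IL11 without passing (adjusted p = 0.193). B and plasma cell markers were uneven among the PBS arrays, as given above, and no fold is drawn from Ighm.

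None of the 19 probes passed the direct test between IL11 and IL6. Over all 17868 probes limma called 0 (0%) between the cytokines, with a smallest adjusted p of 0.298. At an unadjusted p under 0.05 there were 416 (2.33%), where chance gives 893. The log2 difference IL11 minus IL6 was 0.46 ± 0.39 for Reg3a, 0.60 ± 0.26 for Lbp and -1.13 ± 0.26 for Cirbp, the widest of the called genes. It was -0.47 ± 0.29 for Socs3 and -0.40 ± 0.22 for Icam1, each with an adjusted p of 1. IL11 and IL6 are each set against the same PBS arrays, so their changes share those arrays. Cirbp changed by -1.88 with IL11 and -0.75 with IL6, Lbp by 1.81 and 1.22, and Dnajb1 by 0.95 and 2.07. The direct difference of Dnajb1, IL11 minus IL6, was -1.12 ± 0.16 and did not pass (limma adjusted p = 0.298).

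**Figure D5:**
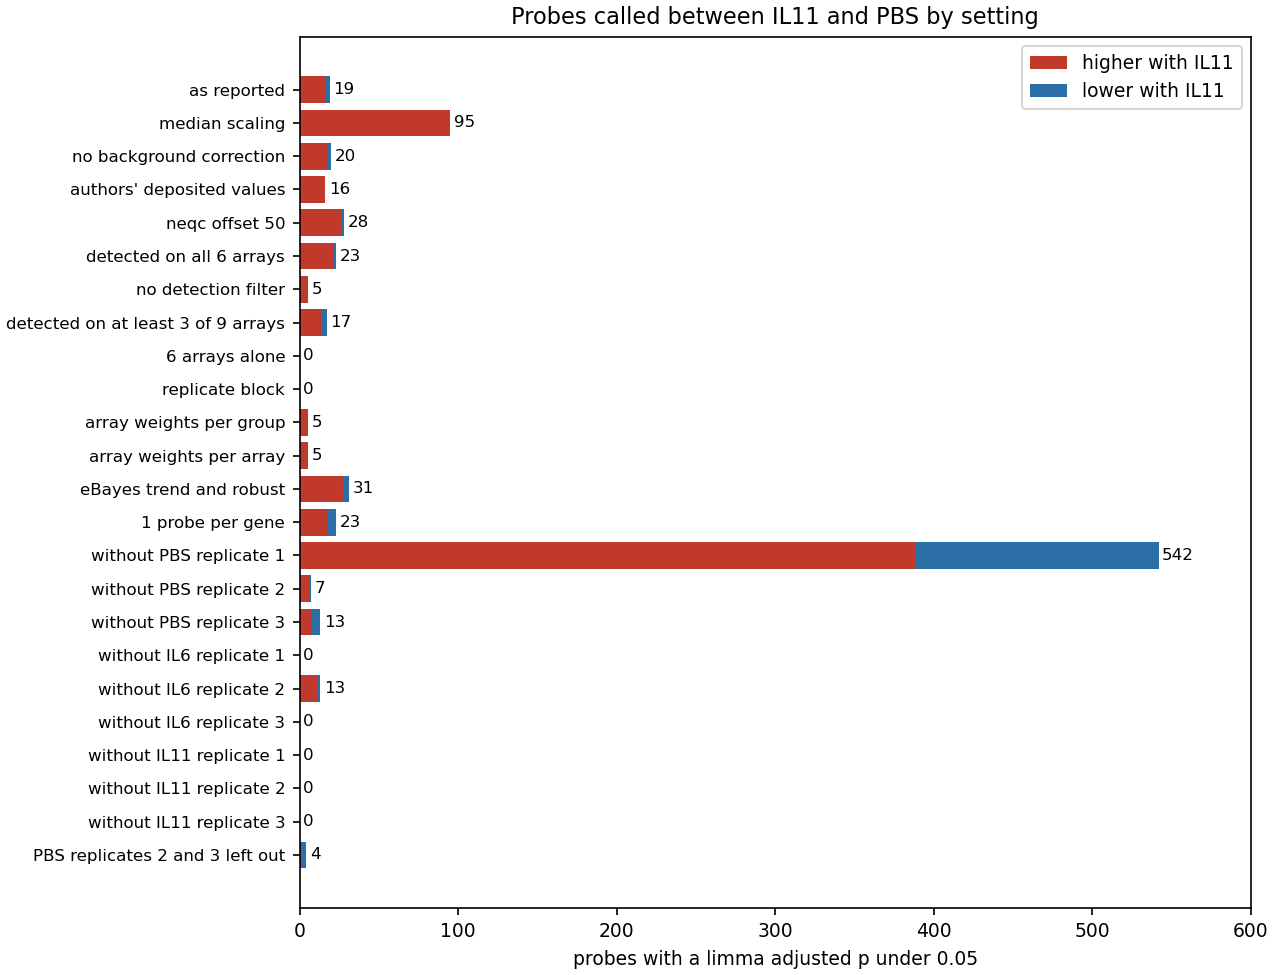
Number of probes called between IL11 and PBS (horizontal axis) under the reported model and 23 other settings, split into higher (red) and lower (blue) with IL11. The count runs from 0 to 542, with 19 in the reported model, and the largest count comes with PBS replicate 1 left out.

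The number of calls rested on which arrays were present. Leaving out PBS replicate 1, the PBS array that correlated best with the IL11 arrays, gave 542 calls, leaving out PBS replicate 2 gave 7, and leaving out PBS replicate 3 gave 13. Without any one IL11 array there were 0, and without IL6 replicates 1, 2 and 3 there were 0, 13 and 0. With the authors' deposited values 16 probes were called, all higher with IL11, and 10 of them were among the 19. Tha1 passed in 11 of the 14 other settings that did not leave out a single array and in 4 of 9 with 1 array left out, the first Gadd45g probe in 10 of 13 and 4 of 9, and Reg3a in 4 of 13 and 2 of 9. Over the 9 models with 1 array left out, log2 changes ranged from 1.55 to 1.84 for Tha1, 1.66 to 2.03 for Icam1, 1.65 to 1.91 for Lbp, 2.22 to 2.92 for Tmem92 and -1.97 to -1.71 for Cirbp.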

How the data were processed

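Total RNA of 9 tumours was hybridised to Illumina MouseWG-6 v2.0 bead arrays, 1 array per mouse. Per the file headers, each intensity is the mean bead signal that BeadStudio 3.4.0 exported without normalization. Detection was deposited as a fraction headed as a p-value, but it rises with signal and was read as 1 minus p. The authors' second table holds log2-like values, taken as log2; lumi and Partek are named in the submitters' processing notes without roles, and all 45281 rows were matched to probes by their ranks over the arrays.

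With limma 3.58.1 in R 4.3.3, neqc (offset 16, quantile normalization, log2) was followed by lmFit and eBayes on all 9 arrays with a mean per group. The contrasts were IL11 minus PBS and IL11 minus IL6, with two-sided tests and Benjamini-Hochberg adjustment over 17868 probes. Errors are SE for changes and SD for means. A p-value speaks for a spread between mice that is pooled over the PBS, IL11 and IL6 groups of 3 mice each. The mean variance over probes was 0.33 with PBS, 0.080 with IL11 and 0.10 with IL6. The pooled spread is thus on average below that of the PBS mice, and SE and intervals share this limit. The number of arrays limits the precision. A fold against a group with no detected array is a lower bound, for which an undetected value was replaced by its array's lowest detected level. The probe with the highest mean stood for a gene in the lists. Of the tested probes 12526 matched a current symbol of GRCm38.p6, 3364 a former one, and 1978 were left with the array's own name.

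Named genes were called probes with separate groups, the next decreases by p, 14 pathway genes, and up to 4 members of each list by p. These rules, the lists and the tests were chosen with earlier results of these data known. Alternatives changed background, scaling, filter, model, block, weights and arrays.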

Additional observations from a re-analysis of the deposited data

How the results depend on the processing

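Wherever tested, the 19 called probes kept their direction in the 23 other settings. Most of these settings could not turn it, because the IL11 and PBS values of the 19 did not overlap. The count of 19 calls was 95 with median scaling, 5 without a detection filter, 5 with array weights per group and 5 per array, 31 with trend and robust moderation, 53 at an adjusted p under 0.1, 0 with the 6 arrays alone and 4 without PBS replicates 2 and 3, a setting chosen after seeing the data, of which 0 were among the 19. With 1 array left out it ranged from 0 to 542. Median scaling moved the median of all probes to 0.28 and gave 94 higher and 1 lower; the reported split was 16 and 3, and the authors' values gave 16 and 0. The causes were not tested. With the replicate block there were 0 calls (smallest adjusted p = 0.0905). Same-numbered IL11 and PBS arrays correlated at 0.0084, -0.0014 and 0.351 in their deviations. The last value was the highest between an IL11 and a PBS array, while not every array correlated best with its own number. So few values cannot settle whether equal numbers mark paired mice. For IL11 minus IL6 the count was 0 in the reported model and with the replicate block. With the 6 IL11 and IL6 arrays alone it was also 0, with 890 probes at an unadjusted p under 0.05. The smallest limma adjusted p there was 0.0578. Signs turned for Pim1 (-0.088 without PBS replicate 3, and -0.088 to 0.51 over the models without 1 array), Il11 (-1.04 without PBS replicates 2 and 3) and Il6ra (0.073 with median scaling, 0.065 without PBS replicate 2, and -0.45 to 0.065 without 1 array). Dim probes limit what can be seen: in the dimmest of 3 level classes, 0 increases and 2 decreases were called.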
